A study of Mus musculus with 7 samples.

Results

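The genes described here are 8 members of the chemokine system that guides T cells into tissue, taken as a list of names with no threshold on their values. They are 6 ligands (Cxcl9, Cxcl10, Cxcl16, Ccl3, Ccl4 and Ccl5) and 2 receptors (Cxcr3 and Cxcr6), out of 33696 genes in the feature list, and all 8 were found there by identifier. They were followed through single-cell RNA profiles of 7 tumors grown under the skin of mice from JW23.3, a mouse line with mutant Nf1 and Trp53 that forms malignant peripheral nerve sheath tumors (MPNST). The irradiated group had 4 tumors, each given a daily fraction of 2 Gy on 5 days with lead shielding over the body outside the tumor, and the control group had 3 tumors that received no radiation. In both groups the JW23.3 cells, which are male, were placed in the flank of wildtype C57/B6 mice, all female and 5 to 6 weeks of age. Randomization was on day 7 and harvest on day 21. All tumors came from this 1 line, and each tumor was 1 library of the droplet assay from 10x Genomics (3' counting), with papain used to free the cells and 10000 cells loaded.

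Chemokines are small secreted proteins that bind receptors on leukocytes and direct their movement. Cxcl9 and Cxcl10 are induced by interferon and bind Cxcr3, a receptor of activated T cells and NK cells. Cxcl16 is made as a membrane-bound protein that can be shed and is the ligand of Cxcr6, found on effector and tissue-resident T cells. Ccl3, Ccl4 and Ccl5 attract T cells and myeloid cells, and Ccl3 and Ccl5 bind the receptor Ccr1. Cytotoxic T cells and NK cells secrete Ccl3, Ccl4 and Ccl5 themselves, so these 3 can be signals from T cells as well as to them.

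The libraries held 34300 retained cells with 617702366 unique molecular identifiers (UMIs, counts of captured molecules), from 2342 to 7451 cells a tumor, and the median retained cell had from 6863 UMIs in control 2 to 21501 in control 1. No pair of libraries shared more than 19 cell barcodes. Cells were put into classes by marker genes that include none of the 8 members, so a class name means only that the cell carried those markers (T-like, macrophage-like and so on, written below without the suffix). The classes held 14524 MPNST cells, 11440 macrophages and monocytes, 1133 T cells, 55 NK cells, 226 dendritic cells, 424 endothelial cells, 333 fibroblasts and 206 pericytes, while 4544 cells had no class and 1254 carried the markers of 2 classes. By their Cd4, Cd8a, Cd8b1 and Foxp3 UMIs the T cells were 295 CD8, 252 conventional CD4 and 183 regulatory T cells, and 389 had neither Cd4 nor Cd8. The 10 T cell markers summed to 4995 CPM (UMIs of a gene per 10 to the power 6 UMIs) in T cells and 2.42 CPM in macrophages, and the 13 macrophage markers to 18312 CPM in macrophages and 89.4 CPM in MPNST cells. Fibroblasts and MPNST cells were not well separated by their lists. The MPNST markers summed to 3295 CPM in fibroblasts and 4854 CPM in MPNST cells, and the fibroblast markers to 5744 CPM in MPNST cells and 11720 CPM in fibroblasts, so these 2 classes rest on Xist, a transcript of the female host that the male line lacks. The libraries were also split into 2 technical sets by cell number, depth and mitochondrial share, with irradiated 1, control 2 and control 3 in set 1 and the other 4 in set 2. The split is weak, since it left 0.489 of the variation within sets and the next best of 63 splits 0.544, and the sets overlapped in mitochondrial share. It was drawn from these measures alone, and no sample label names a batch. Irradiated 1 was the only irradiated tumor of set 1 and control 1 the only control of set 2. Every difference within a set therefore rests on 1 tumor on 1 side. Levels below are CPM over the summed UMIs of a class in a tumor. In such sums, fewer expressing cells and less RNA per cell cannot be told apart. Intervals and floors cover counting error only.

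In the mouse genome (GRCm38) the ligands stood in clusters. Cxcl9 (ENSMUSG00000029417) covered chr5:92321347-92328079 and Cxcl10 (ENSMUSG00000034855) chr5:92346638-92348889, both on the minus strand and with 18558 bases between them. Ccl5 (ENSMUSG00000035042, chr11:83525778-83530518, minus strand), Ccl3 (ENSMUSG00000000982, chr11:83647844-83649355, minus strand) and Ccl4 (ENSMUSG00000018930, chr11:83662584-83664683, plus strand) lay on chromosome 11, with 13228 bases between Ccl3 and Ccl4 and 117325 between Ccl3 and Ccl5. Cxcl16 (ENSMUSG00000018920) was elsewhere on that chromosome, at chr11:70453983-70459984 on the minus strand. The receptors were at chrX:101731535-101734269 on the minus strand for Cxcr3 (ENSMUSG00000050232) and chr9:123806475-123811760 on the plus strand for Cxcr6 (ENSMUSG00000048521). The results turn most on Cxcl9 and Cxcl10, neighbors that share a receptor but differed in the cells that held them, so the 250 bases before each start site are shown here from RefSeq (GRCm38.p6), read 5′ to 3′ on the minus strand, with matches to a searched motif in capitals. The windows are chr5:92348890-92349139 for Cxcl10 and chr5:92328080-92328329 for Cxcl9.
Cxcl10: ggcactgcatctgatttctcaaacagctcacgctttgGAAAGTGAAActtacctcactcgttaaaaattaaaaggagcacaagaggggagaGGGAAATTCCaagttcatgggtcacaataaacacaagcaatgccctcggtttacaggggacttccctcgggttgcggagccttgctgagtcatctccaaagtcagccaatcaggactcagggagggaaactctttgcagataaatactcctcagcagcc
Cxcl9: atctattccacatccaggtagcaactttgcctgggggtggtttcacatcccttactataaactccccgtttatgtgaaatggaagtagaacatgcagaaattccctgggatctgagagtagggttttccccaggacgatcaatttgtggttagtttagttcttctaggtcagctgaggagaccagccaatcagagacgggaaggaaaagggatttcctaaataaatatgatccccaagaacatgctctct
Motifs were searched on both strands in 300 bases, 250 before and 50 after the start. An interferon-stimulated response element (GAAA, any 2 bases, GAAA) was found in 3.44% of 32851 promoters of that length, a gamma-activated site (TTCNNNGAA) in 8.3%, and a kappaB site (GGGA, any 2 bases, TTCC) in 1.47%. By these letters the Cxcl10 window held 1 match to the response element, 213 to 204 bases before the start. It held 1 match to the kappaB letters, 159 to 150 bases before the start, and the matches did not overlap. The windows of Cxcl9, Ccl3, Cxcr3 and Cxcr6 held no match to these letters. Only these exact letters were searched, so other forms of such sites were not counted in any window, and their absence is not shown. A promoter was at hand for 5 of the 8 members.

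The first question was which cells held each transcript. Macrophages and monocytes, 33.4% of retained cells and 15.8% of all UMIs, held most of the UMIs of 4 ligands. Their part of the UMIs was 67.9% for Cxcl9 (51.2% to 75.4% over the 7 tumors), 86.7% for Cxcl16 (83.0% to 91.9%), 88.0% for Ccl3 (83.0% to 93.4%) and 86.9% for Ccl4 (81.8% to 90.5%). Cxcl10 differed. MPNST cells, 42.3% of cells and 68.0% of all UMIs, held 56.5% of Cxcl10 UMIs (35.3% to 67.4%) against 28.5% in macrophages and monocytes (15.6% to 51.6%). For Ccl5 the largest part was also in MPNST cells, at 46.0% (22.4% to 62.6%), with 19.5% in macrophages and monocytes (9.64% to 45.3%), 9.39% in T cells and 6.77% in dendritic cells. The order was not the same in each tumor. In irradiated 4 macrophages and monocytes held 45.3% of Ccl5 UMIs and MPNST cells 24.6%, and in control 2 they held 21.7% and 22.4%. Of the receptors, T cells held 67.4% of Cxcr6 UMIs (46.2% to 80.2%) but 35.7% of Cxcr3 UMIs (16.9% to 54.3%), since 47.8% of the 617 Cxcr3 UMIs were in macrophages and monocytes.

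**Figure D1:**
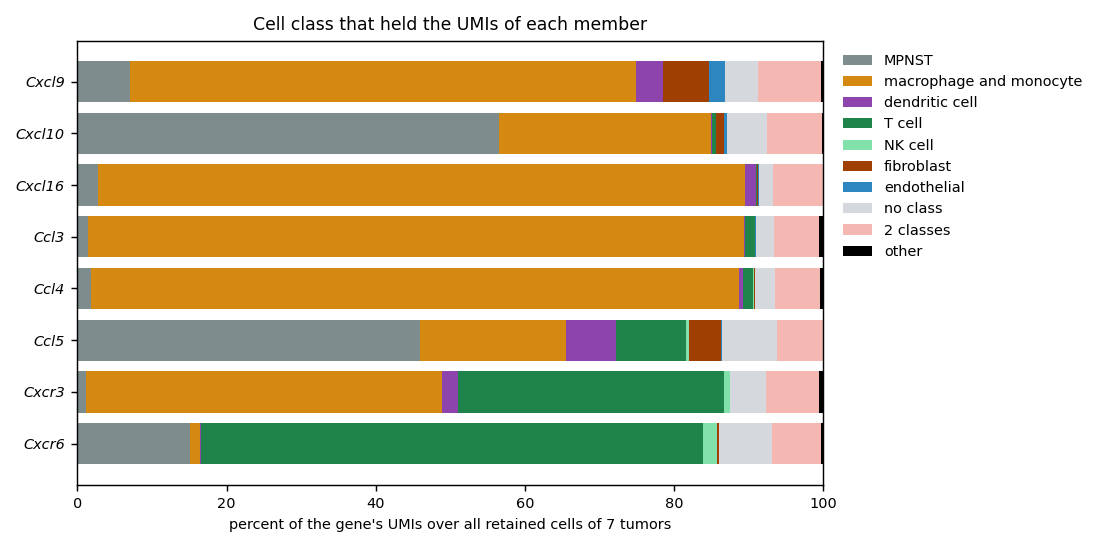
Each bar splits the UMIs of 1 gene, summed over all retained cells of 7 tumors, by the class of the cell that held them (percent of the gene's UMIs on the horizontal axis). Macrophages and monocytes take 86.7% to 88.0% of the bar for Cxcl16, Ccl3 and Ccl4, MPNST cells take 56.5% for Cxcl10 and 46.0% for Ccl5, and T cells take 67.4% for Cxcr6.

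Cxcl9, the interferon-gamma induced ligand of Cxcr3, was a transcript of host cells. Its level over tumors ran from 20.3 to 226 CPM in monocytes (4 tumors with at least 20 cells, median 158), from 5.52 to 464 CPM in fibroblasts (7 tumors, median 155), from 12 to 476 CPM in dendritic cells (6 tumors, median 85.3), from 20.2 to 262 CPM in macrophages without monocytes (7 tumors, median 70.6) and from 10.9 to 764 CPM in endothelial cells (6 tumors, median 34.7). Neighbors in this order overlapped, and in the 4 tumors with both classes fibroblasts were above monocytes in 4. MPNST cells ran from 0.605 to 16.3 CPM. T cells held 4 Cxcl9 UMIs in 1133 cells, a pooled 0.809 CPM (exact Poisson 95% interval 0.22 to 2.07), and the 55 NK cells held 0 (3 UMIs would be 6.47 CPM). With every cell thinned to 2000 UMIs to even out depth, 4.72% of macrophages and monocytes, 9.64% of fibroblasts, 7.91% of dendritic cells and 5.02% of endothelial cells had a Cxcl9 UMI, against 0.305% of MPNST cells and 0.201% of T cells. The unthinned shares were 7.33%, 18.9%, 11.5%, 9.20%, 1.54% and 0.353% in the same order, at median depths of 6822, 12570, 8362, 6139.5, 24062 and 3441 UMIs. Few cells carried most of it, and the highest 1% of macrophages and monocytes held 62.5% of their Cxcl9 UMIs.

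Cxcl10, the other Cxcr3 ligand, was spread over tumor and host cells. Monocytes had the highest level, from 835 to 1488 CPM in 4 tumors, above macrophages without monocytes (166 to 614 CPM over 7 tumors) in 4 of 4 tumors and with ranges that did not overlap. MPNST cells ran from 53.2 to 320 CPM, fibroblasts from 46.7 to 414 CPM and endothelial cells from 31.3 to 536 CPM. At 2000 UMIs, 14.1% of macrophages and monocytes and 10.3% of MPNST cells had a Cxcl10 UMI (21.8% and 31.9% unthinned), against 2.02% of pericytes (6.31% unthinned, median depth 8152 UMIs). T cells had it in 8.15% (11.2% unthinned) at a pooled 119 CPM. In the 127 T cells with a Cxcl10 UMI the MPNST markers summed to 173 CPM against 84.0 CPM in the other T cells, and the macrophage markers to 150 against 186 CPM. The part of free RNA in the T cell level was not tested. In MPNST cells the macrophage markers summed to 77.1 CPM in the 4638 cells with a Cxcl10 UMI and 99.1 CPM in those without. The median depths of these cells were 33354 and 20994 UMIs. The part of macrophage RNA in the MPNST level was not tested. The single richest cell was an MPNST cell of irradiated 3 with 1801 Cxcl10 UMIs.

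Cxcl16, the ligand of Cxcr6, had the most even level of the ligands. It ran from 418 to 606 CPM in macrophages without monocytes, from 274 to 469 CPM in dendritic cells and from 243 to 397 CPM in monocytes. Dendritic cells were below macrophages in 6 of 6 tumors, although the ranges overlapped. Fibroblasts (10.9 to 30.2 CPM) stood below monocytes with no overlap, and MPNST cells ran from 2.87 to 5.58 CPM. A Cxcl16 UMI was seen in 58.2% of macrophages and monocytes at 2000 UMIs (84.7% unthinned), against 0.714% of MPNST cells (9.07% unthinned). The highest 1% of macrophages and monocytes held 5.94% of their Cxcl16 UMIs, against 62.5% for Cxcl9. Among dendritic cells, the 51 mature cells had a pooled 687 CPM (Poisson interval 608 to 773), the 61 type 2 cells 313 CPM (272 to 358) and the 49 type 1 cells 226 CPM (194 to 262).

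Ccl3 and Ccl4, neighboring genes whose products attract T cells and myeloid cells, had the same 3 leading classes among the 11 ranked, and below these their orders differed. Ccl3 ran from 88.6 to 216 CPM in macrophages without monocytes, from 9.47 to 174 CPM in CD8 T cells (6 tumors) and from 20.4 to 99.2 CPM in monocytes. Ccl4 ran from 518 to 1133 CPM, from 195 to 959 CPM and from 134 to 983 CPM in those 3 classes, all with overlap between neighbors. In MPNST cells the levels were 0.244 to 0.696 CPM for Ccl3 and 2.21 to 6.45 CPM for Ccl4. At 2000 UMIs, 35.1% of macrophages and monocytes and 35.4% of CD8 T cells had a Ccl4 UMI (49.5% and 47.1% unthinned), against 0.827% of MPNST cells (9.20% unthinned). Across the 11 class means, the correlation of the 2 genes was r = 0.959, a description in which the classes share libraries. Regulatory T cells had a pooled 116 CPM of Ccl4, of which 1 cell held 75.9%. Classes with too few cells to be ranked were higher still. The 46 granulocytes had a pooled 453 CPM of Ccl3 (Poisson interval 336 to 597), and the 23 plasmacytoid dendritic cells 2386 CPM of Ccl4 (2144 to 2647), in 52.2% of cells and with 49.6% of the UMIs in 1 cell. The 16 genes of a dissociation stress list, read beside these ligands because papain digestion can induce them, summed to between 11914 and 15995 CPM in macrophages and monocytes of the 7 tumors, and their part in the Ccl3 and Ccl4 levels was not tested.

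Ccl5, a product of activated T cells and of some dendritic cells, was highest in CD8 T cells (1280 to 4700 CPM over 6 tumors) and in dendritic cells (859 to 6659 CPM), whose ranges overlapped. The dendritic level came mainly from mature cells, those with Fscn1, Il4i1 and similar genes, in which 49 of 51 cells (96.1%) had Ccl5, at a pooled 9693 CPM (Poisson interval 9389 to 10004). Type 2 cells had 148 CPM (120 to 180) and type 1 cells 42.7 CPM (29.6 to 59.7). Conventional CD4 T cells ran from 240 to 1661 CPM, regulatory T cells from 221 to 559 CPM, macrophages without monocytes from 82.5 to 216 CPM and MPNST cells from 20.8 to 131 CPM. Endothelial cells were lower still, at 0 to 10.7 CPM, below MPNST cells in 6 of 6 tumors with no overlap. Fibroblasts were the most uneven class, from 2.21 CPM in control 3 to 2521 CPM in irradiated 2. In MPNST cells the highest 1% of cells held 59.3% of Ccl5 UMIs, and the macrophage markers summed to 83.6 CPM in cells with Ccl5 and 90.9 CPM in those without. At 2000 UMIs, 71.5% of CD8 T cells, 8.56% of macrophages and monocytes and 4.49% of MPNST cells had a Ccl5 UMI (81.7%, 15.3% and 14.8% unthinned), against 1.05% of endothelial cells (2.36% unthinned).

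Of the receptors, Cxcr3 was found at similar levels in the T cell subsets. It ran from 16.1 to 82.9 CPM in T cells without Cd4 or Cd8 UMIs (7 tumors), from 26.6 to 67.8 CPM in conventional CD4 T cells, from 16.7 to 79.9 CPM in CD8 T cells and from 0 to 58.8 CPM in regulatory T cells (5 tumors). These ranges overlapped, and each subset was above the next in about as many tumors as not (3 of 6, 3 of 6 and 2 of 4). NK cells held 5 UMIs, a pooled 10.8 CPM (Poisson interval 3.50 to 25.2). Macrophages and monocytes held 295 Cxcr3 UMIs at a pooled 3.03 CPM, and at 2000 UMIs 0.615% of them had 1 (2.35% unthinned), against 9.93% of CD8 T cells (18.3% unthinned). Endothelial cells, fibroblasts and pericytes held 0, where 3 UMIs would be 0.883, 0.498 and 1.45 CPM. In the 269 macrophages and monocytes with Cxcr3 the T cell markers summed to 2.21 CPM, against 2.43 CPM in those without. The median depths of these cells were 10643 and 6741 UMIs. The part of T cell RNA in their Cxcr3 level was not tested. In dendritic cells all 13 Cxcr3 UMIs were in type 1 cells (16.3 CPM, interval 8.69 to 27.9), with 6 of them in 1 cell.

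Cxcr6, the receptor of Cxcl16, was graded over the T cell subsets. It ran from 180 to 479 CPM in CD8 T cells, from 124 to 432 CPM in T cells without Cd4 or Cd8, from 52.7 to 275 CPM in conventional CD4 T cells and from 29.8 to 97.2 CPM in regulatory T cells. Each subset was above the next in 5 of 6, 5 of 6 and 3 of 4 tumors, with overlapping ranges. The next class, pericytes, reached 3.14 CPM and did not overlap with regulatory T cells. NK cells had a pooled 60.4 CPM (40.1 to 87.3). At 2000 UMIs, 38.1% of CD8 T cells, 18.1% of conventional CD4 T cells and 8.25% of regulatory T cells had a Cxcr6 UMI (57.6%, 25% and 13.7% unthinned), against 0.0647% of macrophages and monocytes (0.175% unthinned). In MPNST cells 187 cells (1.29%) had Cxcr6, at 0.526 CPM, and T cell markers there summed to 2.07 CPM against 1.59 CPM in MPNST cells without it.

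**Figure D2:**
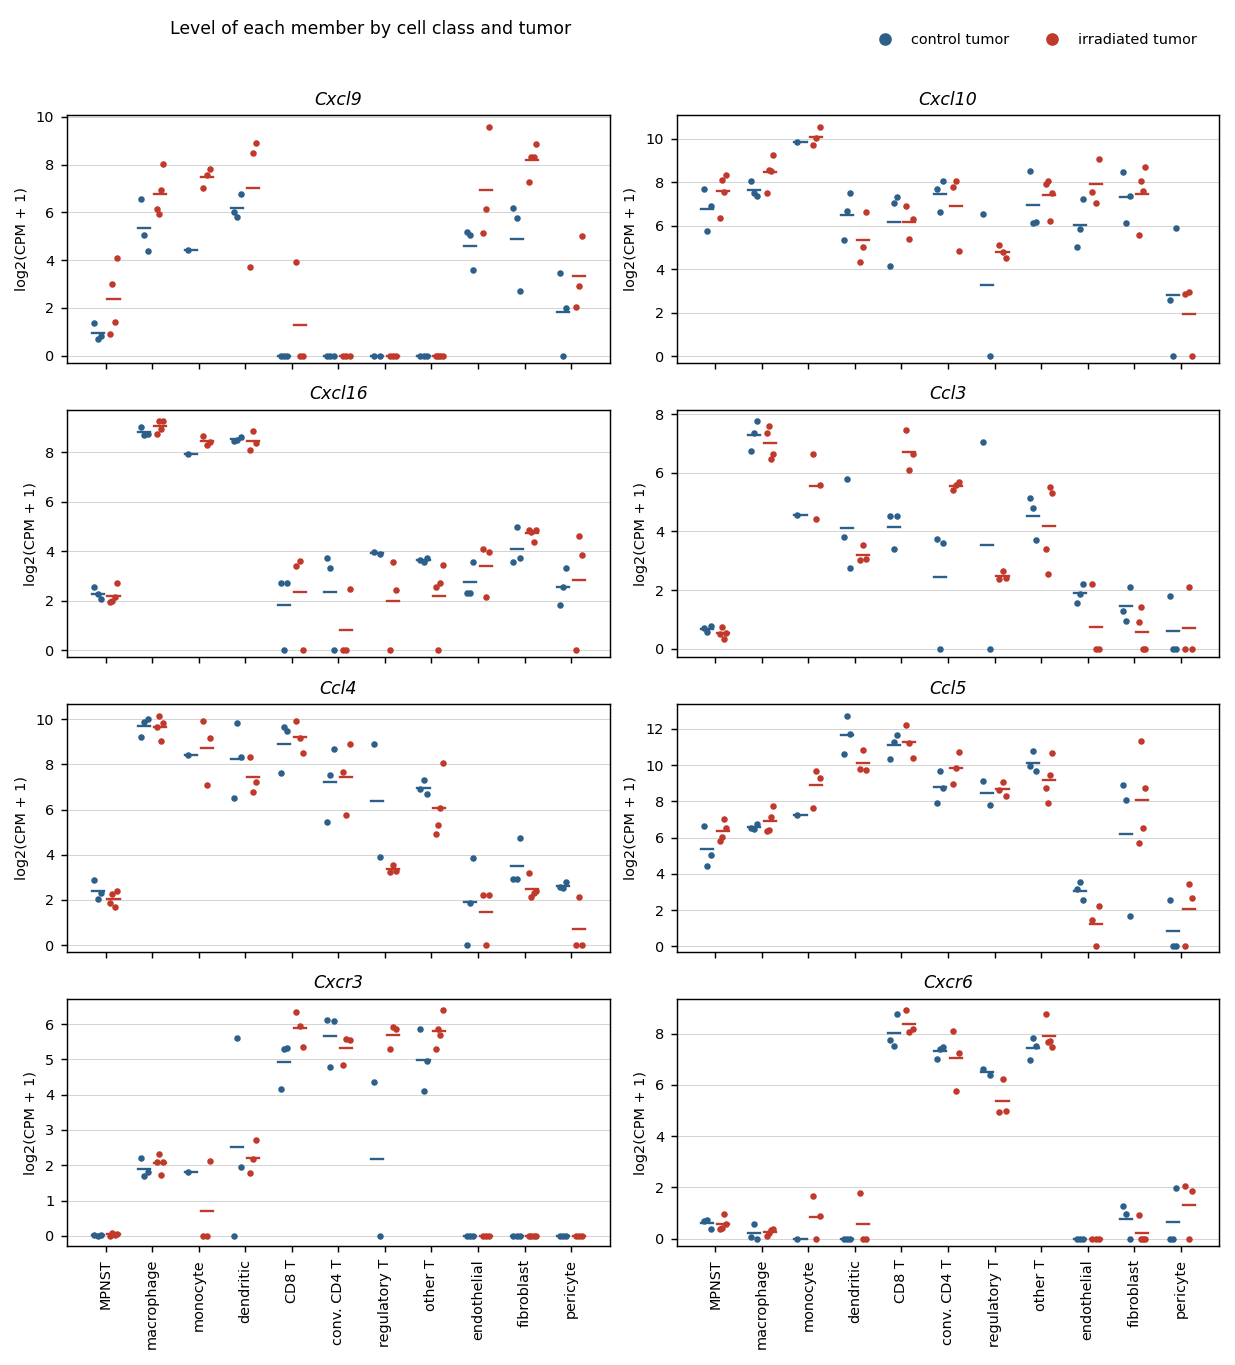
Each panel shows 1 gene, with cell classes on the horizontal axis and log2(CPM + 1) on the vertical axis. A point is 1 tumor with at least 20 cells of the class, blue for control and red for irradiated, a bar is the mean of the points, "macrophage" leaves out monocytes, and "other T" stands for T cells with neither Cd4 nor Cd8. Cxcr6 points of CD8 T cells lie between 180 and 479 CPM and those of endothelial cells at 0.

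These class differences were tested within tumors with edgeR's quasi-likelihood test, the tumor as a block, and adjustment over all genes tested. Between macrophages (with monocytes) and MPNST cells, 41.1% of 15166 genes were higher in macrophages and 44.1% lower. All 7 members tested were higher in macrophages. The differences, as log2 fold change ± SE, were 8.61 ± 0.15 for Ccl3, 8.30 ± 0.24 for Ccl4, 7.66 ± 0.35 for Cxcr3, 7.52 ± 0.14 for Cxcl16 and 5.6 ± 0.43 for Cxcl9 (adjusted p at most 4.83e-07, 7 of 7 tumors each). They were smaller for Cxcl10, with 324 ± 181 CPM in macrophages and 177 ± 98.5 CPM in MPNST cells (mean ± SD, n = 7; log2 fold change 1.42 ± 0.15, edgeR adjusted p = 6.22e-06), and for Ccl5, with 123 ± 58.4 and 70.8 ± 39.0 CPM (1.39 ± 0.26, edgeR adjusted p = 0.000505, higher in 6 of 7 tumors). The scaling adds 0.48 to these log2 values over plain CPM. Cxcr3 was low in both classes, at 3.00 ± 0.665 CPM in macrophages and 0.0224 ± 0.0230 CPM (7 UMIs) in MPNST cells. Cxcr6 was too low in both classes to be tested.

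Dendritic cells and macrophages differed in their ligands in the 6 tumors with enough cells (irradiated 2 had 15 dendritic cells and was left out). Of 11438 genes, 17.6% were higher and 20.8% lower in dendritic cells. Of the 7 members tested, Ccl5 was higher, with 2520 ± 2221 CPM against 128 ± 61.9 CPM (log2 fold change 3.94 ± 0.67, edgeR adjusted p = 0.00615, 6 of 6 tumors). Lower by edgeR were Ccl3 (-3.48 ± 0.29, adjusted p = 5.71e-09), Cxcl16 (-0.46 ± 0.11, adjusted p = 0.00118), Ccl4 (-1.76 ± 0.40, adjusted p = 0.0196) and Cxcl10 (-2.13 ± 0.58, adjusted p = 0.0372). The Cxcl10 call was lost without any 1 of irradiated 1, 3 and 4 and control 1 and 2, with log2 fold changes of -1.99, -1.93, -1.92, -1.98 and -2.30 in that order. The Ccl4 call was lost without irradiated 3 or 4 or control 1 or 3 (-1.71, -1.60, -1.59 and -1.80). Cxcl9 (179 ± 192 against 99.8 ± 86.9 CPM, edgeR adjusted p = 0.492) and Cxcr3 (10.4 ± 18.4 against 2.85 ± 0.592 CPM, edgeR adjusted p = 0.28) did not pass. Between CD8 and conventional CD4 T cells of 6 tumors, 8.96% of 3182 genes were higher and 9.71% lower in CD8 cells. Cxcr6 was higher, with 311 ± 119 against 159 ± 72.3 CPM (1.05 ± 0.21, edgeR adjusted p = 0.00119, 6 of 6 tumors), and it was the only call among 4 members tested. Ccl5 (1.86 ± 0.53, adjusted p = 0.069) and Ccl4 (1.54 ± 0.50, adjusted p = 0.0913) missed the threshold in edgeR and passed it in DESeq2 (adjusted p = 0.00101 and 0.00699). Without irradiated 4 both passed in edgeR (2.32 and 2.09), as did Cxcl10, lower in CD8 cells (-1.32, against -0.92 with all 6 tumors). Cxcr3, with 45.5 ± 21.7 and 47.0 ± 18.1 CPM, was too low to be tested.

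The 14 partner genes, which are receptors, a ligand, processing enzymes and interferon-gamma signaling genes around the members, were read in the same contrasts. Between macrophages and MPNST cells 10 of the 11 tested were higher in macrophages and 0 lower. They included Ccr1, a receptor of Ccl3 and Ccl5, at 178 ± 17.3 against 0.371 ± 0.176 CPM (log2 fold change 9.39). Cxcl11, the ligand gene of the list, was read by its transcript alone (3.61). Also higher were Adam10, which can shed Cxcl16 from the membrane (1.73), Dpp4, a protease that trims chemokines (5.68), Ifngr1 (2.63), Ifngr2 (2.40), Jak1 (1.07) and Jak2 (1.60), while Irf1 did not pass (-0.04, edgeR adjusted p = 0.772). In dendritic cells against macrophages 4 of 11 were higher, among them Dpp4 (6.22), Jak2 (3.27) and Irf1 (1.72), and 4 were lower, among them Adam10 (-1.02), Ccr1 (-0.81) and Ifngr2 (-0.49). CD8 T cells had more Jak1 than conventional CD4 T cells (752 ± 172 against 562 ± 99.5 CPM, log2 fold change 0.44, edgeR adjusted p = 0.0385) and less Jak2 (-1.38).

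Some members were seen in the same cells. The shares that follow are at 2000 UMIs a cell and are medians over 7 tumors, given as a description. Among macrophages and monocytes, 36.2% of cells with Cxcl9 also had Ccl5, against 6.43% of cells without Cxcl9, higher in 7 of 7 tumors. Cxcl10 was in 29.7% of cells with Cxcl9 and 14.3% of those without (7 of 7). Ccl4 was in 71.0% of cells with Ccl3 and 27.4% of those without (7 of 7), but differed little with Cxcl9 (39.1% and 34.0%, higher in 6 of 7). Pooled and unthinned, the dendritic markers summed to 255 CPM in macrophages and monocytes with Cxcl9 and 200 CPM in those without. With and without Ccl5 they summed to 231 and 200 CPM. The T cell markers summed to 2.62 and 2.40 CPM for Cxcl9 and 2.98 and 2.30 CPM for Ccl5. The part of RNA from other cells in the shared detection was not tested. In MPNST cells Ccl5 was in 15.3% of cells with Cxcl10 and 3.66% of those without (7 of 7). T cells with Ccl5 had Ccl4 in 24.7% against 7.00% (7 of 7) and Cxcr6 in 26.3% against 17.9% (6 of 7). Cxcr6 was about as common in T cells with Cxcr3 (23.7%) as without (21.2%, higher in 4 of 7).

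The second question was whether irradiated tumors differed from controls in these genes on day 21. Over all retained cells, Cxcl9 was at 12.6, 29.4, 26.6 and 121 CPM in irradiated 1 to 4 and at 16.5, 8.41 and 4.75 CPM in control 1 to 3. Irradiated 4 stood above all others and irradiated 1 lay within the control range. The means were 47.4 ± 49.7 and 9.88 ± 6.00 CPM (SD, n = 4 and 3; log2 fold change 2.21 ± 0.77, edgeR adjusted p = 0.966), and without irradiated 4 the log2 fold change was 1.20. Of 19560 genes tested 0% were called by edgeR or DESeq2, with 429 at an unadjusted p under 0.05 in edgeR. All 8 members had a positive log2 fold change, with a median of 0.70 against -0.02 over all genes, and none was called. The direction was not the same in both technical sets. Within set 1 the log2 difference was negative for Cxcl10 (-0.048), Cxcl16 (-0.39), Ccl3 (-0.62) and Ccl4 (-0.74), and within set 2 it was positive for all 8. Groups did not overlap on the scaled values for 2.43% of genes (1.1% with irradiated tumors higher and 1.33% lower) and for 0 members.

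Cxcl10 was at 96.8, 292, 214 and 450 CPM in irradiated tumors and 217, 78.9 and 127 CPM in controls (log2 fold change 0.83 ± 0.50). Cxcl16 was at 54.8, 157, 88.7 and 220 CPM against 75.2, 74.2 and 69.8 CPM (0.75 ± 0.41). Irradiated 2 and 4 were the highest 2 tumors for Cxcl10 and Cxcl16. Irradiated 1 was below every control for Cxcl16 and below control 1 and control 3 for Cxcl10. Ccl5 was at 71.5, 122, 149 and 185 CPM against 116, 60.7 and 70.2 CPM (0.62 ± 0.31), with overlap. For the receptors the levels were low. Cxcr3 was at 0.756, 1.74, 1.08 and 2.55 CPM against 0.723, 0.705 and 0.713 CPM (1.0 ± 0.40), so that plain CPM did not overlap by a small margin and scaled values did. Cxcr6 was at 2.86, 2.00, 2.71 and 5.10 CPM against 1.37, 2.22 and 2.02 CPM (0.66 ± 0.35), with overlap. These sums move with the mix of cells. Of 6576, 2342, 3161 and 3048 retained cells in irradiated 1 to 4, MPNST cells were 3092, 838, 1439 and 773. Of 5124, 7451 and 6598 in control 1 to 3 they were 2687, 2881 and 2814. Irradiated 2 and 4, high in most ligands, had the fewest MPNST cells and also the smallest libraries. As a share of retained cells, MPNST cells overlapped between the groups. The part of cell mix in the whole-tumor values was not tested, and the values within classes follow.

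In macrophages and monocytes, Cxcl9 was at 70.6, 62.7, 124 and 260 CPM in irradiated 1 to 4 and at 90.7, 32 and 21.6 CPM in control 1 to 3. Irradiated 4 was again the highest, and control 1 lay above irradiated 1 and 2. The log2 fold change was 1.42 ± 0.65 (edgeR adjusted p = 0.828). It was 0.82 without irradiated 4 and 2.24 without control 1, and the log2 differences within technical sets 1 and 2 were 1.39 and 0.48. Cxcl10 was at 180, 398, 377 and 676 CPM against 282, 186 and 172 CPM (0.92 ± 0.41, edgeR adjusted p = 0.828), with irradiated 2, 3 and 4 above every control and irradiated 1 among them. Monocytes numbered 0, 33, 24 and 115 in irradiated tumors and 31, 2 and 8 in controls. Without them Cxcl9 was at 70.6, 60.1, 123 and 262 against 92.3, 32 and 20.2 CPM, and Cxcl10 at 180, 381, 363 and 614 against 267, 180 and 166 CPM, in the same order of tumors.

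The other members of macrophages and monocytes moved less. Cxcl16 was at 428, 598, 481 and 587 CPM against 519, 418 and 420 CPM (0.19 ± 0.14), and Ccl5 at 82.5, 89.3, 152 and 244 against 92.6, 88.9 and 111 CPM (0.52 ± 0.37). Ccl3 was at 164, 190, 87.2 and 95 CPM against 104, 165 and 215 CPM (-0.29 ± 0.35), and Ccl4 had a log2 fold change of -0.07 ± 0.30. Their groups overlapped in each case. Of 12825 genes 0% were called by edgeR, which had 697 at an unadjusted p under 0.05, and DESeq2 called 2. Of the 7 members tested, 5 had a positive and 2 a negative log2 fold change, with a median of 0.19 against 0.00 over all genes. Groups did not overlap for 4.98% of genes (2.41% with irradiated tumors higher and 2.57% lower) and 0 members. Of 11 partner genes 6 were positive and 5 negative. Irf1, a transcription factor of interferon signaling, was the only partner without overlap (55.6 ± 17 against 37.7 ± 0.514 CPM, edgeR adjusted p = 0.828).

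Fibroblasts were compared after their Cxcl9 levels by class had been seen, so this comparison was chosen with its values known. Cxcl9 was at 155, 316, 321 and 464 CPM in irradiated 1 to 4 and at 71.8, 52.8 and 5.52 CPM in control 1 to 3, with no overlap. The means were 314 ± 126 and 43.4 ± 34.2 CPM (log2 fold change 2.82 ± 0.70, edgeR adjusted p = 0.596). DESeq2 gave a similar size (2.86) and an adjusted p of 0.00115, and edgeR's log2 fold change fell to 0.88 when 1 more marker was asked of each class. The counts behind it were small, with 74, 28, 29 and 22 irradiated and 36, 91 and 53 control fibroblasts, and 1 cell held from 36.4% to 68.8% of the Cxcl9 UMIs of an irradiated tumor. At 2000 UMIs the share of fibroblasts with Cxcl9 overlapped between groups, at 8.5%, 12.7%, 14.9% and 33.6% against 13.5%, 4.72% and 2.54%. In the 63 fibroblasts with Cxcl9 the macrophage markers summed to 306 CPM, against 329 CPM in the others, and the MPNST markers to 3662 CPM, against 3217 CPM. By tumor the MPNST markers in fibroblasts summed to 2646, 2086, 3824 and 6212 CPM in irradiated 1 to 4 and 4278, 2469 and 2583 CPM in control 1 to 3. They were highest in irradiated 4, the tumor with the most Cxcl9, and overlapped between groups, and their part in the Cxcl9 level was not tested. Ccl5 was at 51.2, 2521, 92.1 and 431 CPM against 471, 271 and 2.21 CPM, with overlap. The log2 fold change was 0.22 ± 0.74 for Cxcl10 and 0.53 ± 0.41 for Cxcl16. Of 9375 genes 0% were called by edgeR (783 at an unadjusted p under 0.05) and 4 by DESeq2. Groups did not overlap for 8.39% of genes (3.64% with irradiated tumors higher and 4.76% lower), and for 1 of the 4 members tested. The median of the 4 was 1.13, against 0.01 over all genes.

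**Figure D3:**
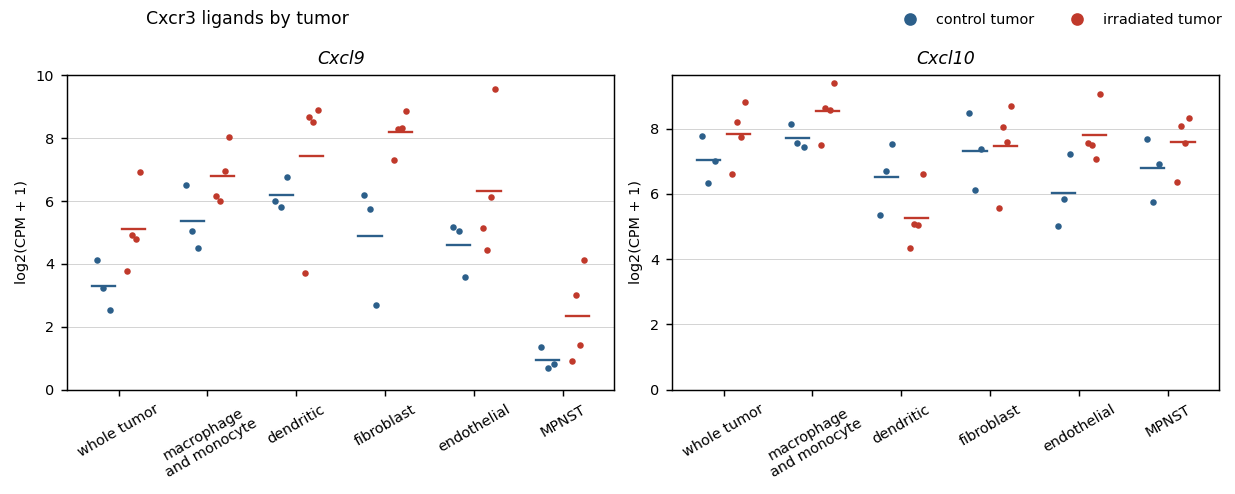
The left panel shows Cxcl9 and the right panel Cxcl10 as log2(CPM + 1), by cell class and, at the left of each panel, in whole tumors. Points are tumors with at least 15 cells of the class (blue control, red irradiated) and bars are means. In fibroblasts the 4 irradiated tumors (155 to 464 CPM of Cxcl9) lie above the 3 controls (5.52 to 71.8 CPM), and in the other classes the groups overlap for Cxcl9.

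In dendritic and endothelial cells the values rested on few cells. Dendritic Cxcl9 was at 12, 362 and 476 CPM in irradiated 1, 3 and 4 and at 63.6, 54.6 and 107 CPM in controls (log2 fold change 1.81 ± 1.16, edgeR adjusted p = 0.999), and at 406 CPM in the 15 cells of irradiated 2, which was not fitted. Irradiated 1 was below every control and the others above. In irradiated 1 and control 1 a single cell held all of it, and without irradiated 1 the log2 fold change was 2.38 with an adjusted p of 0.0025. Dendritic Ccl5 was at 864, 1849 and 859 CPM in irradiated 1, 3 and 4 (664 in irradiated 2) and at 1560, 6659 and 3329 CPM in controls (-1.77 ± 0.67, edgeR adjusted p = 0.999). In control 2, which gave the highest level, 1 cell held 69.5% of the UMIs, and without that tumor the value was -1.07. Mature cells numbered 10, 2, 8 and 10 in irradiated tumors and 7, 5 and 9 in controls. Of 5391 genes 0% were called by edgeR or DESeq2 in dendritic cells (157 at an unadjusted p under 0.05 in edgeR), groups did not overlap for 8.22% of genes (4.54% with irradiated tumors higher and 3.67% lower) and 0 of 5 members, and the members' median was -1.07 against 0.00.

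Endothelial Cxcl9 was at 34.2, 69.4 and 764 CPM in irradiated 1, 3 and 4 and at 35.2, 32 and 10.9 CPM in controls (3.43 ± 1.52, edgeR adjusted p = 0.999). The value of irradiated 4 came from 25 cells, with 55.8% of the UMIs in 1 of them, and the lowest log2 fold change with a tumor left out was 0.94. Endothelial Cxcl10 was at 189, 132 and 536 CPM against 31.3, 56.0 and 148 CPM, with overlap. Of 7163 genes 0% were called by edgeR (241 at an unadjusted p under 0.05) and 1 by DESeq2. Groups did not overlap for 8.66% of genes (4.2% with irradiated tumors higher and 4.45% lower) and 0 of the 2 members tested, whose median was 2.60 against 0.00.

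In MPNST cells Cxcl10 was at 80.7, 271, 187 and 320 CPM in irradiated tumors and 206, 53.2 and 119 CPM in controls (0.71 ± 0.53, edgeR adjusted p = 0.998). Ccl5 was at 55.7, 64.8, 131 and 91.9 CPM against 99.9, 20.8 and 32 CPM (0.73 ± 0.51), with a log2 difference of 1.08 within set 1 and -0.12 within set 2. Both overlapped, with control 1 inside the irradiated range. Cxcl9 was low, at 0.868, 6.99, 1.67 and 16.3 CPM against 1.55, 0.605 and 0.763 CPM, and in irradiated 2 a single cell held 73.4% of it. Of 17384 genes 0% were called by edgeR or DESeq2 (230 at an unadjusted p under 0.05 in edgeR), and groups did not overlap for 2.48% of genes (1.3% with irradiated tumors higher and 1.18% lower) and 0 of 7 members, whose median was -0.05 against 0.00.

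In T and NK cells, Cxcr3 was at 47.0, 47.0, 52.8 and 45.7 CPM in irradiated 1 to 4 and at 34.4, 20.1 and 32.6 CPM in control 1 to 3. Every irradiated tumor was above every control. The means were 48.1 ± 3.18 and 29.0 ± 7.80 CPM (log2 fold change 0.64 ± 0.24, edgeR adjusted p = 0.816). The log2 difference was 0.85 within set 1 and 0.48 within set 2, and leaving out each tumor gave 0.47 to 0.80. Of 7555 genes 0% were called by edgeR (417 at an unadjusted p under 0.05) and 1 by DESeq2. Groups did not overlap for 6.45% of genes in either direction, with 3.06% having irradiated tumors higher and 3.39% lower, so 1 of 6 members tested is to be read against that share. Cxcr6 was at 375, 112, 161 and 165 CPM against 128, 174 and 262 CPM (0.06 ± 0.49), with irradiated 1 highest and the rest mixed. The log2 fold changes of Ccl5 (-0.02 ± 0.42), Ccl4 (-0.35 ± 0.50), Ccl3 (0.60 ± 0.71) and Cxcl10 (-0.23 ± 0.30) were within about 1 SE of 0. The median of the 6 was 0.02, against 0.00 over all genes.

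Among CD8 T cells, the member with the widest difference was Ccl3. It was at 174, 67.5 and 98.5 CPM in irradiated 1, 3 and 4 (37, 18 and 42 UMIs) and at 22.3, 9.47 and 22.2 CPM in control 1 to 3 (4, 1 and 4 UMIs), without overlap among the fitted tumors. Irradiated 2, with 17 CD8 T cells, was not fitted and had 1 UMI (7.10 CPM), below every control. The log2 fold change was 2.43 ± 0.51 (edgeR adjusted p = 0.284), with 3.49 within set 1, 1.83 within set 2 and 2.05 to 2.71 with a tumor left out. With every gene tested that had at least 1 UMI, the adjusted p was 0.000572. The stress genes summed to 6274, 3848, 3918 and 5405 CPM in CD8 T cells of irradiated tumors and 3461, 6916 and 5566 CPM in controls. Within the irradiated group the stress sum had the same order of tumors as Ccl3, and across all 7 tumors the highest stress sum was in control 2, which had 1 Ccl3 UMI. The part of stress in the Ccl3 level was not tested. Ccl4, its neighbor, had 633 ± 301 against 577 ± 334 CPM (0.09 ± 0.55), Ccl5 2803 ± 1722 against 2309 ± 962 CPM (0.22 ± 0.57) and Cxcr6 346 ± 116 against 276 ± 136 CPM (0.22 ± 0.32), each with overlap. Of 3555 genes 0% were called by edgeR or DESeq2 (181 at an unadjusted p under 0.05 in edgeR). Groups did not overlap for 10.9% of genes in either direction (5.32% with irradiated tumors higher and 5.57% lower), and for 1 of 5 members. The members' median was 0.22 against -0.01.

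**Figure D4:**
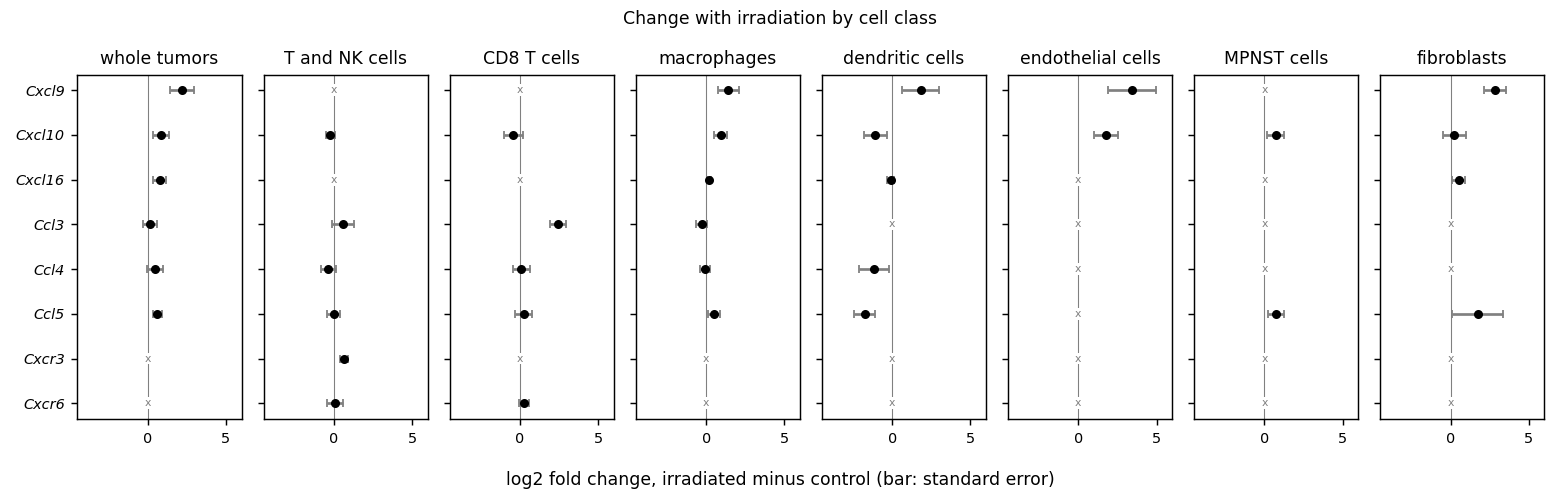
Each panel is 1 comparison of irradiated and control tumors, with the 8 genes down the side and the log2 fold change (irradiated minus control, edgeR) along the horizontal axis. Points are estimates, bars are standard errors, and a small x marks a gene that was not tested or had a mean under 10 CPM in both groups. In CD8 T cells Ccl3 stands at 2.43 ± 0.51, Cxcl9 is to the right of 0 in the 5 panels where it has a point, and no gene was called in any panel.

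The share of CD8 T cells with a receptor was compared at 2000 UMIs, a measure that counts cells but still moves with the transcript level. Cxcr3 was in 14.6%, 15.6%, 13.5% and 8.07% of CD8 T cells of irradiated 1 to 4 and in 3.51%, 7.23% and 5.48% of control 1 to 3, with no overlap. The cells behind these shares were 56, 17, 43 and 64 in irradiated tumors and 20, 28 and 42 in controls. Irradiated 2, with the highest share, was kept here although its 17 cells were too few for the fits. The means were 12.9% ± 3.35 and 5.41% ± 1.86 (SD, n = 4 and 3), a difference of 7.52 points (two-sided exact permutation test, p = 0.0571, where the smallest the 35 splits allow is 0.0286). It was 8.22 points within set 1 and 8.87 within set 2. The level of Cxcr3 in these cells, too low to be tested by the filter, was 79.9, 63.9, 60 and 39.9 CPM (17, 9, 16 and 17 UMIs) against 16.7, 37.9 and 38.8 CPM (3, 4 and 7 UMIs). Unthinned shares were 18.2%, 41.2%, 27.3% and 18.2% against 9.52%, 9.68% and 12% (difference 15.8 points, exact p = 0.0857). For Cxcr6 the shares were 35.9% ± 6.89 and 36.8% ± 13.9, a difference of -0.876 points (exact p = 0.914). The share of macrophages and monocytes with Cxcl9 was 3.89%, 3.53%, 5.91% and 14.3% against 4.52%, 2.04% and 1.61%, a difference of 4.19 points (exact p = 0.2), or 1.72 without irradiated 4. Over 15 comparisons of a member's change between a pair of classes (macrophages, MPNST cells, T and NK cells), the lowest exact p was 0.0571, for Cxcr3 in macrophages against T and NK cells.

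Finally, the level of each ligand in macrophages and monocytes was set against the T and NK share of host cells across the 7 tumors, 6 relations in all. That share was 9.79%, 9.70%, 12.6% and 11.2% in irradiated 1 to 4 and 8.11%, 6.33% and 5.84% in control 1 to 3, so the 3 controls were the 3 lowest and the relation cannot be told apart from the group. Cxcl9 gave r = 0.844 (exact permutation p = 0.0194, adjusted over 12825 genes 0.621) and rho = 0.857 (exact p = 0.0238, adjusted 0.753). Without control 2 and control 3, the tumors farthest from the median share, r was 0.517, so the relation rests in part on them. Cxcl10 gave r = 0.720 (exact permutation p = 0.0746, adjusted 0.621; rho = 0.643, exact p = 0.139, adjusted 0.757) and 0.446 without those 2 tumors. Ccl3 went the other way, with r = -0.694 (exact p = 0.0968, adjusted 0.621; rho = -0.821, exact p = 0.0341, adjusted 0.753), or -0.451. For Cxcl16, Ccl4 and Ccl5 r was 0.531, -0.497 and 0.544 (exact p = 0.223, 0.256 and 0.209, adjusted 0.650, 0.665 and 0.645), with rho of 0.5, -0.571 and 0.357 (exact p = 0.267, 0.2 and 0.444, adjusted 0.757, 0.757 and 0.822). Without control 2 and 3, r was -0.06, -0.235 and 0.664 for these 3. Against the T and NK share of all retained cells the order of the ligands changed. Cxcl10 then had the highest r, 0.911 (exact permutation p = 0.00556, adjusted 0.286; rho = 0.821, exact p = 0.0341, adjusted 0.570), followed by Cxcl9 with 0.823 (exact p = 0.0216, adjusted 0.302; rho = 0.75, exact p = 0.0663, adjusted 0.570) and Ccl5 with 0.813 (exact p = 0.0258, adjusted 0.312; rho = 0.393, exact p = 0.396, adjusted 0.731). That share was 3.33%, 4.70%, 5.35% and 6.69% in irradiated tumors and 2.56%, 2.56% and 2.49% in controls, again with the 3 controls lowest. The r was 0.698 for Cxcl16, -0.566 for Ccl3 and -0.093 for Ccl4 (exact p = 0.0937, 0.173 and 0.846, adjusted 0.384, 0.472 and 0.934), with rho of 0.571, -0.643 and -0.214 (exact p = 0.2, 0.139 and 0.662, adjusted 0.612, 0.581 and 0.867). With the share of host cells, of all 12825 genes 0 passed the adjusted threshold and 954 had an unadjusted p under 0.05.

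**Figure D5:**
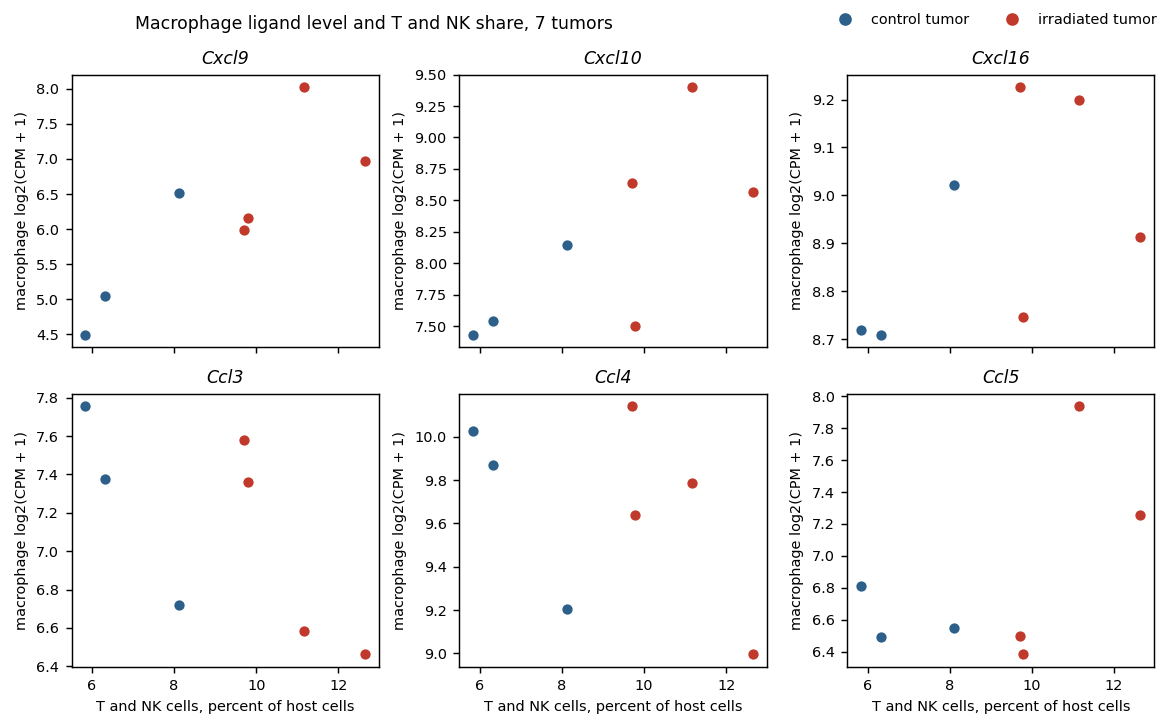
Each panel plots 1 ligand, with the T and NK cells as percent of host cells on the horizontal axis and the level in macrophages and monocytes as log2(CPM + 1) on the vertical axis. Points are the 7 tumors, blue for control and red for irradiated. The 3 controls have the 3 lowest shares (5.84% to 8.11%), and for Cxcl9 the points lie with r = 0.844.

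A list of 49 other chemokine and chemokine receptor genes was read beside the members. In whole tumors 26 of 41 tested had a positive and 15 a negative log2 fold change with irradiation (median 0.26), in macrophages and monocytes 13 and 8 of 21 (median 0.09), and in MPNST cells 9 and 17 of 26 (median -0.22), with 0 called in each. The partner genes were positive in 11 of 13 in whole tumors (median 0.42) and 7 of 10 in T and NK cells (median 0.05). They were positive in 8 of 9 in CD8 T cells, 6 of 10 in MPNST cells, 6 of 7 in fibroblasts, 5 of 10 in dendritic cells and 0 of 7 in endothelial cells (median -0.08), with 0 called in each. Ifng, the interferon whose signal induces Cxcl9, was at 134 ± 95.9 CPM in T and NK cells of irradiated tumors and 143 ± 68.9 CPM in controls (log2 fold change -0.13 ± 0.70). In CD8 T cells it was at 248 ± 131 against 189 ± 149 CPM (0.25 ± 0.54). Over whole tumors it was at 1.93 ± 1.78 against 0.905 ± 0.345 CPM (0.97 ± 0.68), and groups overlapped in each.

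The genes most like each member over the means of 11 classes were named by a fixed rule, the 3 highest correlations of log2 CPM among 12062 genes. These are descriptions over classes that share libraries. For the receptors they were Sidt1, Cd96 and Sh2d1a with Cxcr6 (r = 0.997, 0.996 and 0.993), and Xlr4b, Oprm1 and Gm15472 with Cxcr3 (0.991, 0.985 and 0.983), and the correlation of Cxcr3 and Cxcr6 with each other was 0.929. For the macrophage ligands they were Aph1c, Csf2ra and ENSMUSG00000121485 with Cxcl16 (0.988, 0.985 and 0.984), Tasl, Lpin2 and Ccl4 with Ccl3 (0.973, 0.966 and 0.959), and Lilrb4b, Pik3ap1 and Tasl with Ccl4 (0.971, 0.965 and 0.964). For the rest they were Apba1, Nos1ap and Cfb, a complement gene, with Cxcl9 (0.958, 0.944 and 0.933), Hsdl1, P2ry10b and Cept1 with Cxcl10 (0.910, 0.869 and 0.846), and Iqgap2, Apbb1ip and Ezr with Ccl5 (0.944, 0.932 and 0.927). Cxcl9 and Cxcl10, though neighbors, had r = 0.406, and Cxcl9 had r = 0.786 with Cxcl16.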

How the data were processed

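Counts were deposited as 1 gene-by-barcode matrix of whole-number UMI counts per tumor. Per the file headers Cell Ranger 8.0.0 made them, and the submitters' notes name mm10 and Seurat 4.4. The deposited counts were not normalized. The feature list pairs identifiers with symbols but holds no coordinates, and 31961 of its 33696 identifiers were found in GENCODE vM21 (GRCm38), from which positions were taken, so the annotation behind the counts was not the same.

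Cells more than 3 median absolute deviations from their library's median in log UMIs, log genes, mitochondrial share or ribosomal protein share were left out. A cell joined a class when it carried enough markers of that list and of no other (4 of 10 and a Cd3 gene for T cells, 4 of 13 with at least 2 UMIs each for macrophages, 3 of 17 with at least 2 UMIs each and no Xist for MPNST cells, 5 of 8 with at least 2 Xist UMIs for fibroblasts). As an exception, fibroblasts and pericytes with at least 2 Xist UMIs kept their class when they also passed the MPNST list. Cells of 2 classes, which may be doublets, were left out of classes, and no doublet caller was run. UMIs were summed per tumor and class with at least 20 cells, filtered with filterByExpr, scaled by TMM and tested with edgeR 4.0.16 (quasi-likelihood, robust, R 4.3.3) with Benjamini-Hochberg adjustment over all genes tested. Irradiated 2 fell under that minimum for CD8 T, dendritic and endothelial cells. DESeq2 1.42.0, no filter, clusters (scanpy 1.11.5), other gates, the technical set as a term and leaving out each tumor were alternatives. Class contrasts had the tumor as a block. Shares of cells were computed at 2000 UMIs a cell and compared by exact permutation over samples (scipy 1.17.1). Scripts were tested on simulated data.

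The members and lists were chosen with earlier results of these data known. Partner genes, the members' like genes (the 3 highest correlations) and 49 other chemokine genes were named by rule, and fibroblasts were compared after their values had been seen. Some partner genes counted in the list are not reported here by name. The tumors are labelled as biological replicates.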

Additional observations from a re-analysis of the deposited data

Results flagged for a closer look

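Cxcl9 over all retained cells of the irradiated tumors was flagged because irradiated 4, at 121 CPM, lay far from the other 3 (12.6, 26.6 and 29.4 CPM) by Dixon's test for a single distant value. Of 27 groups of irradiated tumors tested in this way it was the only one flagged, and chance flags about 1 in 20 groups. The same tumor had the highest Cxcl9 in macrophages and monocytes (260 CPM), fibroblasts (464 CPM), endothelial cells (764 CPM) and MPNST cells (16.3 CPM). It also had the fewest MPNST cells (773 of 3048 retained cells). The part of the cell mix in these levels was not tested.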

How the results depend on the processing

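No irradiated against control comparison had a call in edgeR, and this count rose in some alternatives. DESeq2 called 1 gene in T and NK cells, 2 in macrophages, 1 in endothelial cells and 4 in fibroblasts. With every gene of at least 1 UMI tested, edgeR called 63 in T and NK cells, 13 in CD8 T cells, 5 in dendritic cells, 27 in endothelial cells and 6 in fibroblasts. Leaving out each tumor gave 0 to 8 calls in T and NK cells, 0 to 1 in CD8 T cells and 0 to 1 in dendritic cells. The cause was not tested.

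Some log2 fold changes (irradiated minus control) near 0 changed sign. With the technical set as a term, they were 0.052 for Ccl4 and 0.40 for Ccl5 in T and NK cells, 0.21 for Cxcl10 in CD8 T cells, 0.026 for Ccl3 and 0.12 for Ccl4 in macrophages, and -0.74 for Cxcl10 and -0.00057 for Ccl5 in fibroblasts. With classes from clusters, they were 0.31 for Cxcl10 and 0.050 for Ccl5 in T and NK cells, 1.64 for Cxcl10 in CD8 T cells, 0.15 for Ccl4 in macrophages and 0.10 for Cxcl16 in dendritic cells. With cells of 2 classes kept, they were 0.26 for Ccl5 in T and NK cells, 0.15 for Ccl4 in macrophages and 0.36 for Cxcl16 in dendritic cells. With 1 more marker per class, they were 0.88 for Ccl4 in dendritic cells and -3.35 for Cxcl10 in fibroblasts. With every gene tested, Ccl5 in T and NK cells was at 0.014. Unthinned, the share of CD8 T cells with Cxcr6 differed by 3.19 points, and the Cxcl16 correlation without control 2 and 3 was -0.060. The cause was not tested.

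Leaving out each tumor changed signs too, over ranges of -0.15 to 0.51 for Ccl3 in whole tumors, -0.30 to 0.20 for Ccl5 and -0.40 to 0.37 for Cxcr6 in T and NK cells, and -0.28 to 0.12 for Ccl4 in macrophages. In CD8 T cells the ranges were -0.34 to 0.41 for Ccl4, -0.38 to 0.57 for Ccl5, -0.99 to 0.21 for Cxcl10, -0.073 to 0.70 for Cxcr6 and -5.62 to 7.13 points for the share with Cxcr6. They were -0.33 to 0.038 for Cxcl16 in dendritic cells, -0.43 to 2.54 for Ccl5 and -0.19 to 0.94 for Cxcl10 in fibroblasts, and -0.14 to 1.45 for Cxcr3 in dendritic cells against macrophages.

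Same-numbered tumors did not deviate together (correlations -0.066, 0.081 and 0.010), so the numbers were not taken to pair tumors. With a replicate block, dendritic cells had 1 call and the other comparisons 0, and the signs of Ccl4 in dendritic cells (0.17) and Cxcl10 in fibroblasts (-0.16) changed. Single genes and ligand correlations were tallied together under the other alternatives. Of these values 290 kept their direction and their side of the threshold, 21 changed sign, 4 passed the threshold and 1 no longer did. With a tumor left out these counts were 355, 22, 4 and 9. Shares of cells were tallied apart, with 1 change of sign under the other alternatives and 3 with a tumor left out. A contrast of CD8 T with NK cells was not run, since no tumor had 20 NK cells. Depth limits Cxcr3 most, with 617 UMIs in all cells.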
